A study of Homo sapiens with 22 samples.

Results

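MDA-MB-231 cells labelled MW-JQ1 were compared with MDA-MB-231 cells given JQ1 alone, both at 0.5 µM JQ1 for 3 days. MDA-MB-231 is an established human breast cancer cell line of mesenchymal character. The comparison rests on 4 of the 22 RNA-seq libraries of the series, 2 labelled MW_JQ1 and 2 labelled JQ1. Another group of the same table, CTRL, has the same genotype label and time and no drug, and its 2 libraries are given for reference. All 3 groups carry the genotype label WT. The MW_JQ1 and JQ1 labels differ only in the prefix MW, whose meaning the labels do not give. The protocols mention lentivirus and drugs for the series as a whole, without saying which samples received virus. Whether paired libraries were grown separately is not stated, and p-values here therefore measure no more than the spread between these libraries, which may be technical. The series title sets BET inhibition beside the m6A writer complex.

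The deposited table lists 14954 genes, of the 60669 that the other tables of the series hold. The values are FPKM, read fragments per length of gene and size of library. Of the 14954 genes, 9100 were above 0 in all 4 libraries, and 8899 of these were also at 1 FPKM or more in at least 2 of the 4 and were tested. Differences are given as MW_JQ1 minus JQ1 on the scale log2(FPKM + 1), which understates the change of low genes. A gene is called higher or lower, and is said to have risen or fallen, at a Benjamini-Hochberg adjusted p under 0.05 in limma over the 8899 genes. FPKM carries no read depth, so no counting interval is given. The 4 libraries are bulk samples, in which fewer cells of a type and less RNA per cell cannot be told apart.

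BET proteins are bromodomain readers of acetylated histones that help recruit the elongation kinase P-TEFb to promoters and enhancers, and JQ1 displaces them from chromatin. The m6A writer methylates adenosines in nascent RNA, with METTL3 as its catalytic subunit, METTL14 as its RNA-binding partner and WTAP as an adaptor. Most mRNAs end in a poly(A) tail. The mRNAs of replication-dependent histones end in a conserved stem-loop, and spliceosomal, nucleolar and signal recognition particle RNAs carry no long poly(A) tail, so the level of these RNAs in a library depends on how RNA was selected. The labels' protocols describe a directional library kit and also a depletion of ribosomal RNA followed by separation into poly(A)- and poly(A)+ RNA. They do not say which samples each applies to.

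Because histone mRNAs proved to be a class that separates the groups, the ends of 5 of the 16 histone genes that were lower in MW_JQ1 are shown. The capitals mark the 16-base stem-loop, an inverted repeat of 6 bases around a loop of 4, as the search GGNNNTTTNNANNNCC with paired arms found it in the last 100 bases of the gene's annotated transcripts (GENCODE release 29, hg38).
H2BC5: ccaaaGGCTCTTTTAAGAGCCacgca
H2AC18: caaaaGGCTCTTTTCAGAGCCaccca
H4C8: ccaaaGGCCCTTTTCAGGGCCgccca
H4C11: taaaaGGCCCTTTTCAGGGCCaccct
H2AC13: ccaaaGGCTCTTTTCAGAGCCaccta
These stretches lie at chr6:26158582-26158607 (plus strand), chr1:149842218-149842243 (minus strand), chr6:26285126-26285151 (minus strand), chr6:27824454-27824479 (plus strand) and chr6:27808642-27808667 (plus strand). Such a stem-loop was found for 13 of 19684 coding genes of the annotation (0.066%), for 8 of the 36 replication-dependent histone genes of the table with a transcript (22.2%), and for 0 of 10 polyadenylated histone variants. Many annotated histone transcripts stop before the stem-loop, so a gene without a match in this window may still have one.

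METTL3, on chromosome 14 (21498133 to 21511375, minus strand, hg38), was listed at 11.8 FPKM in JQ1 library 1 and at 0 in JQ1 library 2. It stood at 212 and 234 FPKM in the MW_JQ1 libraries, and at 31.2 and 1.18 in the CTRL libraries. Both MW_JQ1 libraries were far above the other 4 of the table, while the 2 libraries of JQ1, and those of CTRL, lay far apart. Another table of the series, with a DMSO group, may have been normalized separately. In it METTL3 was at 20.1 and 19.2 in cells given JQ1 and 25.4 and 27.2 in DMSO cells. Because of the 0, METTL3 was outside the tested genes. With genes at 0 kept in the fit its adjusted p was 0.064 in limma. METTL3 overlaps the last part of TOX4 on the opposite strand, and whether strand was used in counting is not given in the sources used here. TOX4 was at 21.2 and 3.13 FPKM in JQ1 and 14.7 and 17.6 in MW_JQ1.

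Of the other members of the writer complex 7 were tested, and none was called, beside 2.35% of all tested genes. WTAP was at 25.5 and 13.5 FPKM in JQ1 and 85.3 and 71.7 in MW_JQ1 (log2 difference 2.02, SE 0.38, limma adjusted p = 0.071). With no overlap between its groups, WTAP was among the 40.7% of tested genes with both MW_JQ1 libraries above both JQ1 libraries. It passed with the replicate number as a block, a setting that called 620 of the 8899 genes. Under the 3 scalings described below it did not pass (limma adjusted p = 0.094 with TMM factors, 0.087 with equal medians and 0.097 without the RNA classes). WTAP overlaps SOD2 on the opposite strand. METTL14 was at 4.37 and 7.79 in JQ1 and 4.46 and 4.85 in MW_JQ1, which overlap. RBM15B, an RNA-binding subunit, was at 22.2 and 15.2 in JQ1 and 9.96 and 10.3 in MW_JQ1 (adjusted p = 0.23). Its paralog RBM15 was at 6.44 and 5.63 against 2.93 and 1.17, the scaffold VIRMA at 12.2 and 11.2 against 11 and 13.4, ZC3H13 at 9.02 and 19.3 against 6.14 and 5.73, and CBLL1 at 21.9 and 8.03 against 3.73 and 4.93. These 4 were named after their values were seen. The median difference of the 7 tested members was -0.80, beside 0.33 for all 8899 genes, and WTAP and VIRMA were the 2 members above 0.

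Small RNA genes were nearly absent from the MW_JQ1 libraries. The 87 genes that the table types as misc_RNA, snRNA, snoRNA, scaRNA, rRNA or miRNA took 15.8% and 13.5% of the summed FPKM in the JQ1 libraries, 12.4% and 16.7% in CTRL, and 0.0293% and 0.0358% in MW_JQ1. This grouping by type was chosen after the values were seen. Replication-dependent histones (38 genes in the table) took 0.948% and 0.980% in JQ1, 2.03% and 2.13% in CTRL, and 0.203% and 0.197% in MW_JQ1. The 10 genes listed as polyadenylated histone variants ran the other way between the groups compared. They took 0.129% and 0.121% in JQ1 and 0.186% and 0.184% in MW_JQ1. In CTRL they took 0.209% and 0.185%, near the MW_JQ1 shares. With 2 libraries against 2, a permutation test over libraries cannot go below p = 0.33, so these shares are given with no test.

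Over the same genes, 15 libraries of the other 2 tables had small RNA shares of 0.0285% to 0.123% and histone shares of 0.0356% to 0.302%, leaving out 1 library in which a single gene inflated the sum. The MW_JQ1 libraries lay inside both ranges, and the CTRL and JQ1 libraries lay above both. The RNA fraction that was sequenced and the label MW therefore cannot be told apart in this comparison.

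**Figure D1:**
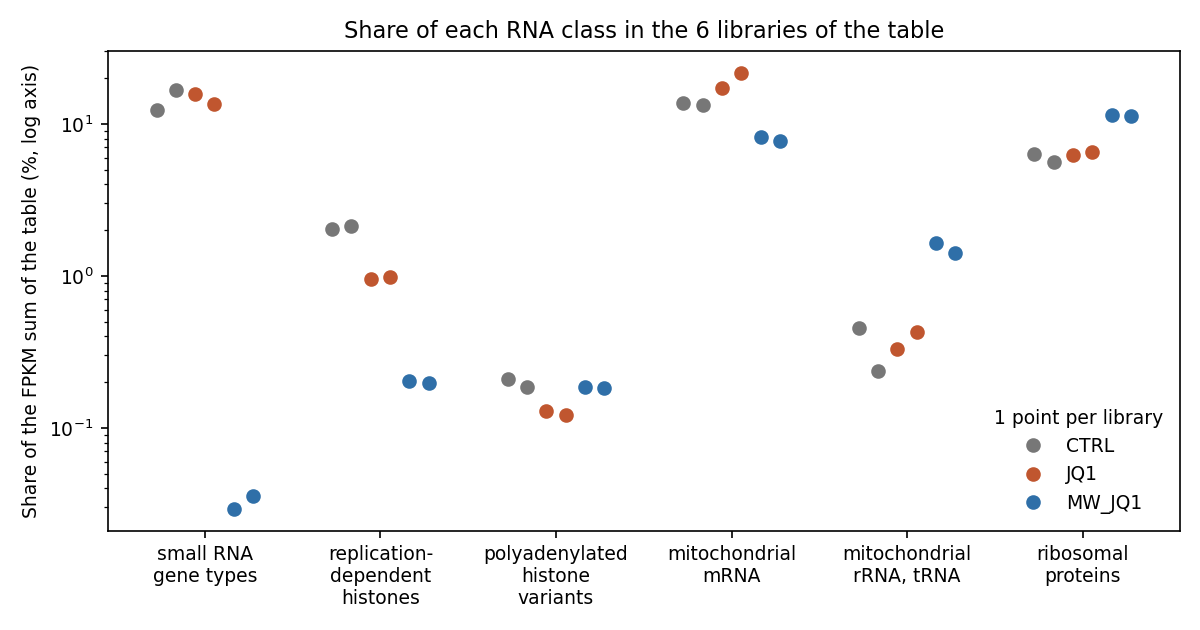
Share of the summed FPKM (%, log axis) taken by 6 RNA classes in each of the 6 libraries of the table, 1 point per library, coloured by group. Small RNA genes take 15.8% and 13.5% in JQ1 and 0.0293% and 0.0358% in MW_JQ1, while ribosomal protein genes take 6.20% and 6.53% against 11.5% and 11.3%.

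The libraries also differed in how many genes were listed at 0. In JQ1 3374 and 5287 of the 14954 genes were at 0 (22.6% and 35.4%), against 306 and 276 in MW_JQ1 (2.05% and 1.85%) and 272 to 378 in the 16 libraries of the other tables. CTRL had 5301 and 3477. None of 30 housekeeping genes was at 0 in any of the 6 libraries. In all, 2627 genes were at 0 in both JQ1 libraries only, and 1463 genes were at 0 in at least 1 JQ1 library and at 5 FPKM or more in both MW_JQ1 libraries. The reverse pattern held for 37 genes. Keeping to genes above 0 in all 4 libraries leaves these differences outside the test.

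The 2 JQ1 libraries differed from each other far more than the 2 MW_JQ1 libraries did. Over the 8899 genes the SD of the log2 difference between the libraries of a group was 1.29 in JQ1 and 0.29 in MW_JQ1. In JQ1 38.7% of genes differed by more than 2-fold between the 2 libraries, in MW_JQ1 0.787%. The spread that limma set each difference against therefore comes mainly from the JQ1 libraries.

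**Figure D2:**
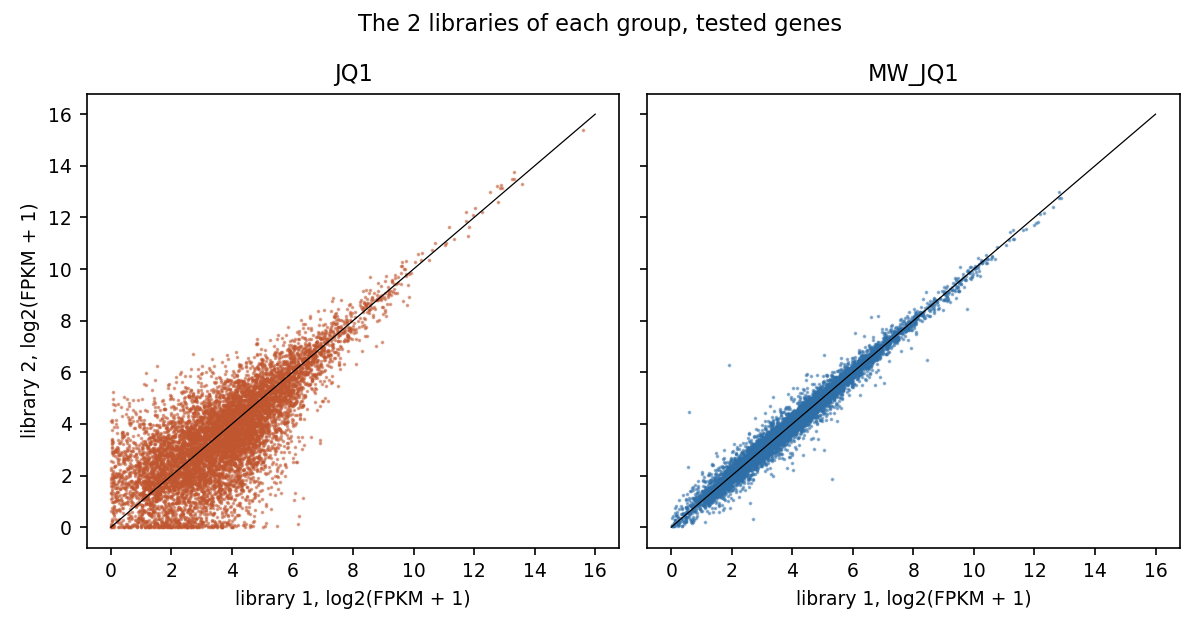
Level of each tested gene, log2(FPKM + 1), in library 2 against library 1 of JQ1 (left) and of MW_JQ1 (right), 1 point per gene, with the line of equal values. The JQ1 points scatter widely below about 6 on this scale (SD of the difference 1.29), and the MW_JQ1 points lie close to the line (SD 0.29).

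Of the 8899 genes, 209 were called (2.35%), 143 higher in MW_JQ1 (1.61%) and 66 lower (0.742%). Both MW_JQ1 libraries were above both JQ1 libraries for 3621 genes (40.7%) and below both for 1969 (22.1%), so a gene whose groups do not overlap is common here. The median difference of all tested genes was 0.33, the shift against which the gene lists below are read. After scaling by TMM factors the median was 0.03 and 75 genes were called, 25 higher and 50 lower, and all 75 were among the 209. After scaling to equal medians 42 were called, 10 higher and 32 lower. After rescaling each library without histones, small RNAs and mitochondrial genes 75 were called, 23 higher and 52 lower. Higher calls thus made up 143 of 209 as deposited and fewer than the lower calls under each of these scalings. When protein-coding genes outside those classes were fitted alone and rescaled to their own sum, none of 8274 was called in limma, and 2102 were at an unadjusted p under 0.05.

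The count moved with each library left out, and below a call lost without either library of a group is lost with each left out in turn. Without JQ1 library 1 it was 6212 and without JQ1 library 2 it was 5658, where the lone JQ1 library is assumed to vary like the 2 MW_JQ1 libraries. Without MW_JQ1 library 1 it was 127 and without MW_JQ1 library 2 it was 124. With the replicate number as a block it was 620.

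**Figure D3:**
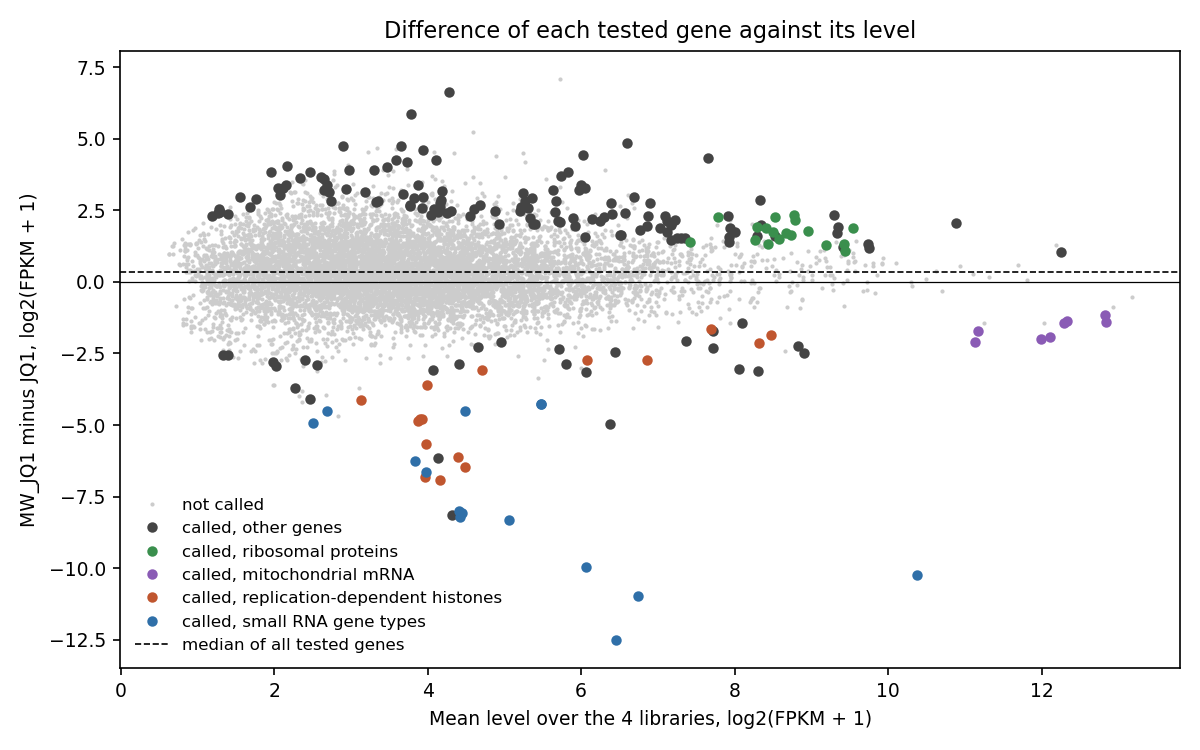
Difference between MW_JQ1 and JQ1, log2(FPKM + 1), against the mean level over the 4 libraries, 1 point per tested gene, with called genes coloured by class and the median of all tested genes (0.33) as a dashed line. Small RNA genes and histones make up most of the deepest falls, and the mitochondrial mRNAs lie at the highest levels.

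Small structured RNAs gave 9 of the 10 deepest falls named. Of the 87 genes of the small RNA types 22 were tested, and of these 15 fell and 0 rose, with a median difference of -4.81 (background 0.742% lower). SNORD3A, the U3 small nucleolar RNA that guides processing of the ribosomal RNA precursor, was at 7139 and 6219 FPKM in JQ1 and 0.087 and 0.217 in MW_JQ1 (log2 difference -12.50, SE 0.21, limma adjusted p = 0.00069). RN7SL1, the RNA of the signal recognition particle, was at 50061 and 42965 in JQ1 and 23.8 and 57.6 in MW_JQ1, and it alone took 10.8% and 9.33% of the JQ1 sums. In CTRL it was at 37435 and 52947. Its related loci RN7SL5P (4892 and 4758 in JQ1, 1.39 and 1.38 in MW_JQ1), RN7SL4P (2146 and 2059, then 0.630 and 1.72) and RN7SL3 (445 and 256, then 0.595 and 0.107) went the same way. RN7SL5P lies within PTPRD and RN7SL4P within ANKRD28.

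The spliceosomal U1 loci RNU1-28P (346 and 388 FPKM in JQ1, 0.308 and 0.188 in MW_JQ1) and RNU1-27P (340 and 372, then 0.362 and 0.316) fell by 8.20 and fell by 8.06 on the log2 scale. SNORA73B, a nucleolar RNA hosted by SNHG3, was at 811 and 431 in JQ1 and 0.448 and 1.41 in MW_JQ1. SCARNA9, a Cajal body RNA inside CEP295 that the table types as lncRNA, was at 322 and 346, then 0.230 and 0.150. SNORD3A, the 4 RN7SL loci and each of these 4 genes was called under all 3 scalings. The RN7SL, RNU1 and SNORD3 loci have near-identical copies, so how reads were divided among them is uncertain. Several of the same kind were at 0 in a library and were not tested. RNU4-2, the U4 RNA, was at 642 and 271 in JQ1 and at 0.372 and 0 in MW_JQ1. RNU4-1 was at 310 and 375, then 0 and 0.0589, and RNVU1-18 at 368 and 337, then 0 and 0.166. RNU1-2 (336 and 373 in JQ1) and RNU1-3 (350 and 394) were listed at 0 in both MW_JQ1 libraries.

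Of 28 replication-dependent histones tested, out of 38 in the table, 16 fell (background 0.742%) and 0 rose, with a median difference of -2.92. For 25 of the 28 both MW_JQ1 libraries were below both JQ1 libraries (background 22.1%). H1-4, a linker histone, was at 206 and 186 FPKM in JQ1 and 0.596 and 0.675 in MW_JQ1 (log2 difference -6.91, SE 0.30, limma adjusted p = 0.011). H4C3, a histone H4 gene, was at 182 and 148 in JQ1 and 0.248 and 0.754 in MW_JQ1. H3C3, a histone H3 gene, was at 121 and 102, then 1.43 and 0.983. In CTRL these 3 stood at 648 and 559, 178 and 317, and 409 and 311.

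The 6 histone genes with the highest mean over the 4 libraries follow. That mean includes MW_JQ1, so the choice favours genes that fell less, and level cannot be set against fall here. H1-2 was at 659 and 690 FPKM in JQ1 and 152 and 149 in MW_JQ1 (log2 difference -2.15, adjusted p = 0.024). H2BC5, whose stem-loop is printed above, was at 619 and 738 in JQ1 and 184 and 190 in MW_JQ1 (-1.85, adjusted p = 0.030), and H2AC18 was at 344 and 389, then 109 and 122 (-1.66, adjusted p = 0.038). H2BC4 was at 234 and 384, then 42.4 and 45.6 (-2.74). H2BC12, at 340 and 213 in JQ1 and 143 and 121 in MW_JQ1, was not called (adjusted p = 0.12), and H2AC6, at 158 and 225 against 144 and 108, was not either. Histone calls numbered 13, 8 and 13 under TMM, equal-median and class-free scaling, with H2BC4 lost under all 3 and H2BC5 and H2AC18 under equal medians. H2AC18 was also lost without MW_JQ1 library 1.

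Of 9 genes tested from the list of polyadenylated variants, 1 rose (background 1.61%) and 0 fell, with a median of 0.41. H2AX, the variant phosphorylated at DNA breaks, was at 18.0 and 10.97 FPKM in JQ1 and 95.3 and 87.4 in MW_JQ1 (log2 difference 2.61, SE 0.33, limma adjusted p = 0.046). H2AX was at 110 and 107 in cells given JQ1 of the table with the DMSO group, which may have been normalized separately. Its call was lost under all 3 scalings and without either MW_JQ1 library. H3-3A (61.4 and 131 in JQ1, 194 and 113 in MW_JQ1), H3-3B (80.8 and 82.1, then 94.6 and 106), H2AZ1 (72.1 and 102, then 140 and 153), H1-10 (29.3 and 42.4, then 90.5 and 92.7) and H2AZ2 (99.4 and 52.1, then 49.8 and 52.8) were not called. The groups overlapped for H3-3A and H2AZ2.

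Among 9 nuclear-retained long noncoding RNAs tested, 1 fell (background 0.742%) and 0 rose (background 1.61%). MALAT1, a nuclear speckle RNA whose end is a triple helix in place of a poly(A) tail, was at 457 and 463 FPKM in JQ1 and 19.3 and 9.98 in MW_JQ1 (log2 difference -4.95, SE 0.35, limma adjusted p = 0.026), and was called under all 3 scalings. It was at 68.9 and 116 in CTRL. NEAT1, the RNA of paraspeckles, named after its values were seen, was at 51.8 and 21.2 in JQ1 and 7.68 and 10.6 in MW_JQ1 and was not called (adjusted p = 0.13).

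Of 13 messenger RNAs of the mitochondrial genome, all tested, 8 fell (61.5%, background 0.742%) and 0 rose, with a median of -1.43. Both MW_JQ1 libraries were below both JQ1 libraries for 12 of the 13 (background 22.1%). MT-ND5, a subunit of respiratory complex I, was at 4188 and 5237 FPKM in JQ1 and 1122 and 1048 in MW_JQ1 (log2 difference -2.11, limma adjusted p = 0.026). MT-CYB of complex III was at 3972 and 4423, then 1336 and 1203. MT-ND2 was at 6983 and 9468, then 2150 and 1942, and MT-ND4L, which overlaps MT-ND4, was at 7531 and 9784, then 2275 and 2232. Calls in this list numbered 5, 0 and 7 under TMM, equal-median and class-free scaling, and the median stayed below 0 in each. As a class these mRNAs took 17.3% and 21.7% of the sum in JQ1, 13.8% and 13.3% in CTRL and 8.15% and 7.71% in MW_JQ1. In 15 libraries of the other tables they took 4.22% to 6.86%. Mitochondrial rRNAs and tRNAs ran the other way, with 0.331% and 0.427% of the sum in JQ1 and 1.65% and 1.41% in MW_JQ1. They took 0.451% and 0.238% in CTRL and 0.690% to 1.59% in those 15 libraries. MT-TS1, a serine tRNA, was at 69.1 and 28.2 in JQ1 and 979 and 826 in MW_JQ1 (4.31, adjusted p = 0.039), a call lost under all 3 scalings. Nuclear genes of oxidative phosphorylation had a median of 0.41, near that of all genes, with 0 of 69 higher and 1 lower (1.45%, background 0.742%). The lower gene was COX7C (781 and 1248 in JQ1, 207 and 210 in MW_JQ1), a call lost under all 3 scalings.

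Of 78 cytosolic ribosomal protein genes tested, out of 80 in the table, 18 rose (23.1%, background 1.61%) and 0 fell, with a median of 0.86. RPL18 was at 164 and 169 FPKM in JQ1 and 830 and 786 in MW_JQ1 (log2 difference 2.27, SE 0.14, limma adjusted p = 0.024). RPS16 was at 193 and 222, then 924 and 949. RPL13 was at 204 and 184, then 1107 and 875, and RPS14 at 90.3 and 110, then 522 and 446. As a class they took 6.20% and 6.53% of the sum in JQ1, 6.38% and 5.59% in CTRL, 11.5% and 11.3% in MW_JQ1, and 10.4% to 15.8% in 15 libraries of the other tables. The calls numbered 4, 0 and 3 under TMM, equal-median and class-free scaling, and the median stayed above 0 (0.52, 0.56 and 0.46). RPS14 was called under none of the 3, and RPL18, RPS16 and RPL13 under TMM and class-free scaling. In the table with the DMSO group, cells given JQ1 had RPL18 at 835 and 785 and RPS16 at 905 and 899. They had RPL13 at 782 and 756 and RPS14 at 392 and 371.

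**Figure D4:**
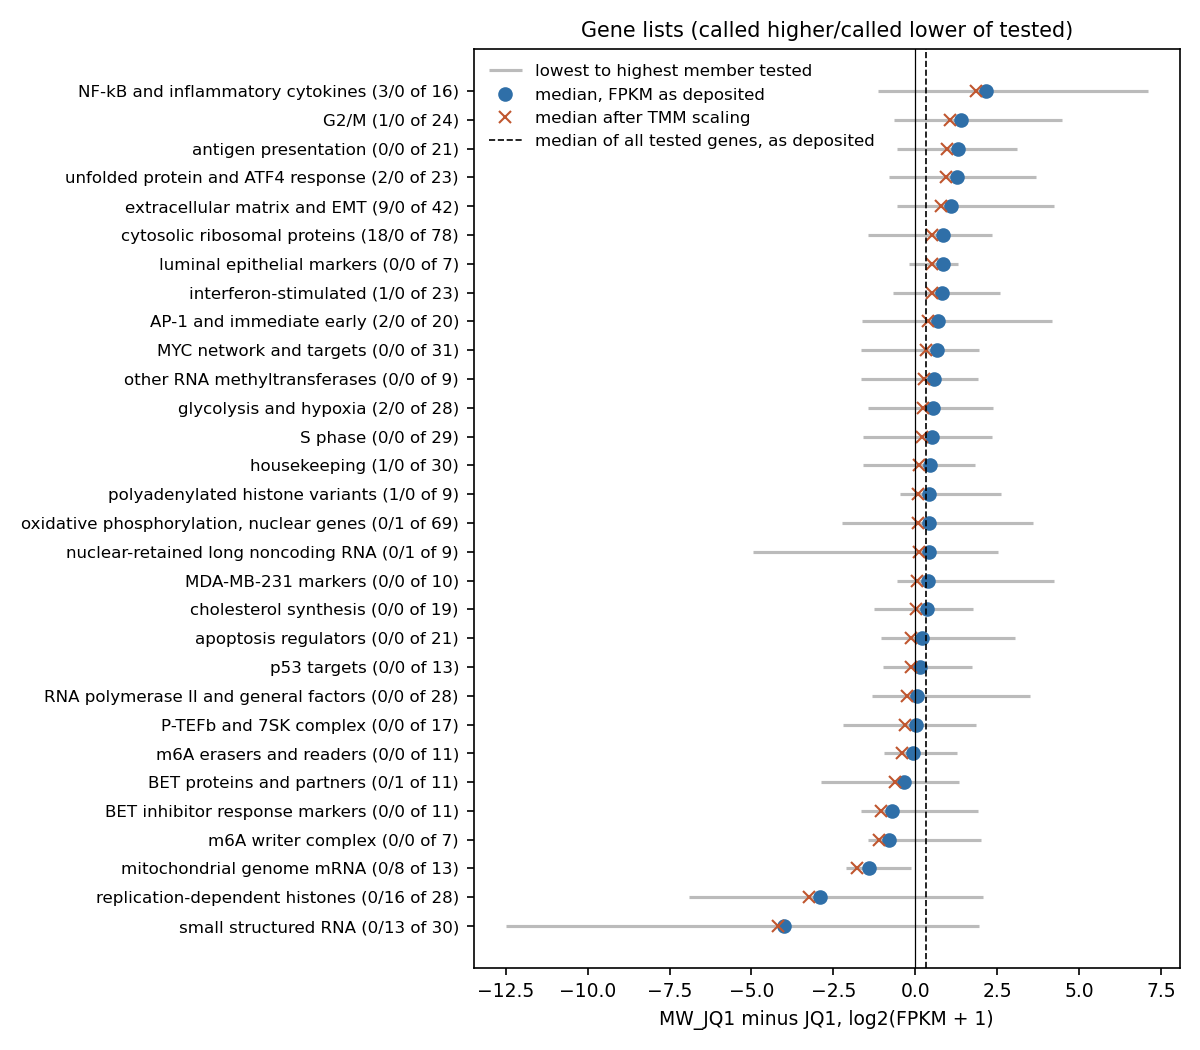
Gene lists ordered by their median difference between MW_JQ1 and JQ1, log2(FPKM + 1). Dots are medians as deposited, crosses medians after TMM scaling, bars run from the lowest to the highest member tested, and the counts give members called higher and lower of those tested. The NF-kB list lies highest (2.16) and small structured RNA lowest (-4.002), and TMM scaling moves each median down, among others that of the P-TEFb list from 0.03 to -0.31.

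Inflammatory cytokine genes were among the highest rises. NF-kB is a transcription factor family that drives cytokine and chemokine genes. Of 37 genes of its list in the table, 16 were tested, since 13 and 21 were at 0 in the JQ1 libraries and none in MW_JQ1. Of the 16, 3 rose (18.8%, background 1.61%) and 0 fell, with a median of 2.16 and a median of 1.84 under TMM. The promoters of the 3 are shown from 250 bases before to 50 bases after the start (RefSeq, GRCh38.p14), with the capitals marking a match to GGGNNTTNCC, a form of the NF-kB site searched on both strands.
IL6: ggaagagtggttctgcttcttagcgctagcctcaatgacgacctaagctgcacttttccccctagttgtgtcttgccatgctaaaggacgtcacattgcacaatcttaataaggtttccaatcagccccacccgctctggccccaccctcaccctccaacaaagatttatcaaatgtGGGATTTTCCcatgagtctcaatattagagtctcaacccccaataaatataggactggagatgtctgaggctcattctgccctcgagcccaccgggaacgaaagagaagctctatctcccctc
CXCL1: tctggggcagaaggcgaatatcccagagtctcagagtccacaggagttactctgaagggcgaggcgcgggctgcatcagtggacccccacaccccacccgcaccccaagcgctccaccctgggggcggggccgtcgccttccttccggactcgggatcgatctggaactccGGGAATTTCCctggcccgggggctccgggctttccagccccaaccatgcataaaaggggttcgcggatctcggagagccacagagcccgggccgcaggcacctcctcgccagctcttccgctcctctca
CXCL2: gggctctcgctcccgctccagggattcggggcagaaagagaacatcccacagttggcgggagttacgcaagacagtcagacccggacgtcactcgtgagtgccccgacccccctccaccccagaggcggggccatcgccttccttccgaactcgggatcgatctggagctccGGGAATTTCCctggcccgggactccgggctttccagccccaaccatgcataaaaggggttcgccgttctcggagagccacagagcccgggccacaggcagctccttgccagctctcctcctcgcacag
They lie at chr7:22726950-22727249 (plus strand), chr4:73869143-73869442 (plus strand) and chr4:74099146-74099445 (minus strand). The match begins at -73, -79 and -78 from the start. It reads GGGATTTTCC in IL6 and GGGAATTTCC in both chemokine genes. The motif was found in 1994 of 35116 promoters of this length (5.68%) and in 17 of the 30 genes of the list that have a promoter in the table used. The first count is of promoters and the second of genes, some with several promoters, so the shares are not alike. The 17 include the 3 called genes and others not called. A match describes the letters only.

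IL6, the gene of interleukin 6, was at 2.99 and 0.485 FPKM in JQ1 and 67.6 and 60.3 in MW_JQ1 (log2 difference 4.74, SE 0.58, limma adjusted p = 0.046). CTRL stood at 62.0 and 64.6, level with MW_JQ1. CXCL2, a neutrophil chemokine, was at 12.7 and 13.4 in JQ1 and 329 and 274 in MW_JQ1 (4.42, SE 0.22, adjusted p = 0.018), above the 47.6 and 26.6 of CTRL. CXCL1, its paralog, was at 15.1 and 26.9 in JQ1 and 217 and 195 in MW_JQ1 (3.28, SE 0.34, adjusted p = 0.038), with 39.1 and 65.7 in CTRL. CXCL2 was called under all 3 scalings, and IL6 and CXCL1 under none. The call of IL6 was also lost without either MW_JQ1 library. In the table with the DMSO group, which may have been normalized separately, cells given JQ1 were at 1.83 and 1.06 for IL6, 4.94 and 4.29 for CXCL2 and 27.4 and 23.9 for CXCL1. Those JQ1 columns are assigned to their group by name, with no replicate number.

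Immediate early genes, which respond to growth factors and stress within minutes, rose in part. Of 20 tested, 2 rose (10%, background 1.61%) and 0 fell, with a median of 0.69. EGR1, a zinc finger factor, was at 2.59 and 1.68 FPKM in JQ1 and 52.7 and 58.2 in MW_JQ1 (log2 difference 4.18, SE 0.35, limma adjusted p = 0.030), and at 0 and 7.46 in CTRL. It was called under all 3 scalings, and the call was lost without either MW_JQ1 library and with CTRL in the fit. IER3, a survival gene induced by NF-kB, was at 238 and 322 in JQ1, 1506 and 1331 in MW_JQ1, and 877 and 885 in CTRL (2.35, adjusted p = 0.030), a call lost under all 3 scalings. Its antisense neighbour IER3-AS1 was listed at 8.09 and 0 in JQ1 and at 342 and 363 in MW_JQ1. HCG20, a noncoding gene, was at 1.83 and 4.58, then 78.4 and 70.2 (4.24, adjusted p = 0.038), and its call was lost under all 3 scalings and without either MW_JQ1 library.

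**Figure D5:**
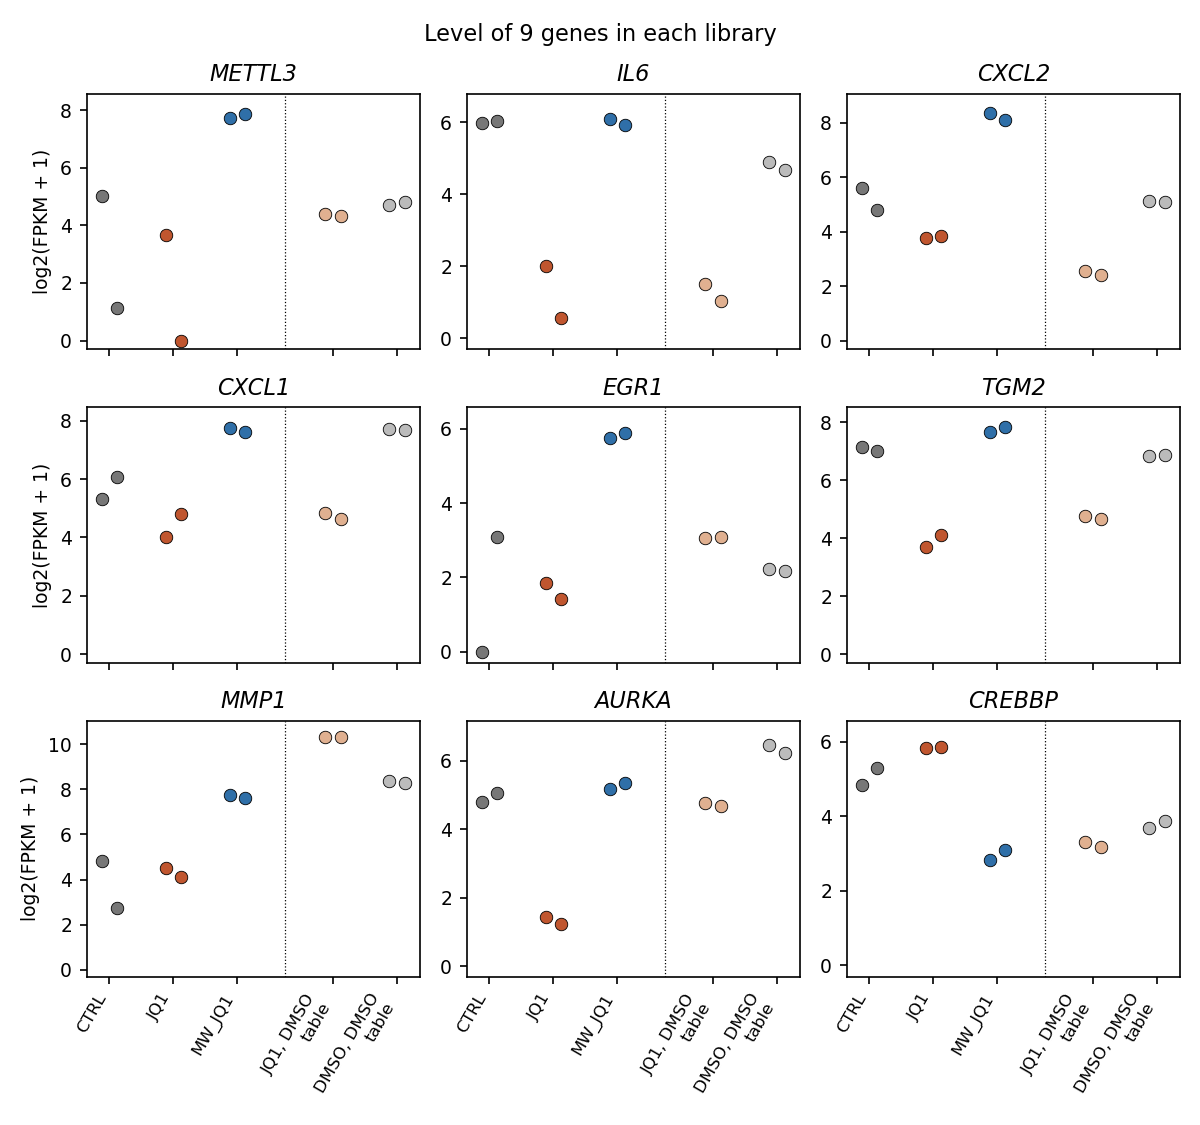
Level of 9 genes, log2(FPKM + 1), in each library, with the CTRL, JQ1 and MW_JQ1 libraries left of the dotted line and the JQ1 and DMSO libraries of the other table right of it. IL6 stands near the CTRL level in MW_JQ1 and low in both JQ1 groups, while AURKA is lowest in the JQ1 libraries of the table tested and METTL3 is highest in MW_JQ1.

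Some genes of the extracellular matrix and of the epithelial to mesenchymal transition rose. Of 42 tested, 9 rose (21.4%, background 1.61%) and 0 fell, and 3 rose under each of the 3 scalings. The median was 1.08, and 28 of 42 had both MW_JQ1 libraries above both JQ1 libraries (background 40.7%). TGM2, a transglutaminase that crosslinks matrix, was at 11.9 and 16.3 FPKM in JQ1, 200.5 and 225 in MW_JQ1, and 141 and 128 in CTRL (log2 difference 3.83, SE 0.26, limma adjusted p = 0.024). LAMB3, a laminin beta chain, was at 47.2 and 42.4 in JQ1 and 294 and 324 in MW_JQ1 (2.76, adjusted p = 0.024). MMP1, a collagenase, was at 21.7 and 16.3 in JQ1 and 217 and 194 in MW_JQ1 (3.38, adjusted p = 0.026). PLAU, the urokinase activator of plasminogen, was at 16.001 and 20.4 in JQ1, 140 and 129 in MW_JQ1, and 72.8 and 98.9 in CTRL (2.82, adjusted p = 0.030).

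TGM2, LAMB3 and MMP1 were called under all 3 scalings and without either MW_JQ1 library. PLAU was called under none of the 3, and its call was lost without MW_JQ1 library 1. MMP1 lost its call with CTRL in the fit. Among the others that rose were FN1 (29.1 and 43.2 FPKM in JQ1, 151 and 164 in MW_JQ1), COL13A1 (24.4 and 28.5, then 123.5 and 133), LOXL2 (92.2 and 98.0, then 275 and 281) and CCN1 (567 and 508, then 1380 and 1337). They encode fibronectin, a transmembrane collagen, a collagen-crosslinking oxidase and a matricellular protein, and were named after their values were seen. None of these 4 was called under any of the 3 scalings, FN1, COL13A1 and LOXL2 lost their calls without either MW_JQ1 library, and CCN1 without MW_JQ1 library 1. In the DMSO table cells given JQ1 had MMP1 at 1293 and 1287 and TGM2 at 26.5 and 24.3.

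The remaining high rises were of mixed function. TNFSF10, the death ligand TRAIL, was at 2.24 and 1.30 FPKM in JQ1, 53.7 and 49.7 in MW_JQ1 and 16.4 and 64.5 in CTRL (log2 difference 4.27, limma adjusted p = 0.030). TMC6, a transmembrane channel-like gene, was at 0.639 and 0.269, then 38.0 and 36.6 (4.73, adjusted p = 0.029). REX1BD was at 1.92 and 2.35, then 71.1 and 78.5 (4.60, adjusted p = 0.024). In JQ1 cells of the DMSO table TNFSF10 was at 3.33 and 3.64, TMC6 at 10.6 and 10.9 and REX1BD at 67.2 and 69.4. All 3 were called under all 3 scalings, with TNFSF10 and REX1BD lost without either MW_JQ1 library. AC011446.2 (2.74 and 0.0147, then 172 and 213), SSBP4 (2.195 and 0.0261, then 96.4 and 111) and VIM-AS1 (25.6 and 11.2, then 557 and 478) overlap IER2, ISYNA1 and VIM on the opposite strand, and their reads may not be separable from those genes. VIM itself was at 860 and 848 in JQ1 and 1181 and 849 in MW_JQ1. AC011446.2 and SSBP4 lost their calls under all 3 scalings, and AC011446.2, VIM-AS1 and REX1BD with CTRL in the fit. In JQ1 cells of the DMSO table AC011446.2 was at 72.0 and 90.2, SSBP4 at 54.2 and 47.6 and VIM-AS1 at 822 and 80.9.

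ANKRD1, a target of YAP, completes the 10 genes that rose under all 3 scalings and was named after its values were seen. It was at 111 and 128 FPKM in JQ1, 934 and 799 in MW_JQ1 and 167 and 131 in CTRL (log2 difference 2.85, SE 0.17, limma adjusted p = 0.024). Among protein-coding genes outside the classes above, 113 of 8196 rose (background 1.61%) and 11 fell (background 0.742%). The falls under all 3 scalings included BMP4, a secreted growth factor, at 189.8 and 216 in JQ1 and 36.8 and 35.0 in MW_JQ1 (-2.46, adjusted p = 0.029). They also included SLC38A2, a glutamine transporter, at 440 and 503, then 94.3 and 92.1 (-2.32, adjusted p = 0.025), and CCNI, a cyclin-like gene, at 354 and 323, then 86.0 and 73.0 (-2.08, adjusted p = 0.030). These 3 were named after their values were seen. Pseudogenes gave 13 falls (background 0.742%) and 1 rise (background 1.61%) of 247 tested, and their reads may not be separable from those of the parent genes.

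The genes of BET proteins and their partners gave 1 call, beside a background of 1.61% higher and 0.742% lower over all tested genes. Of 11 BET proteins and partners tested, 0 rose and 1 fell, the acetyltransferase CREBBP, at 55.8 and 57.1 FPKM in JQ1 and 6.07 and 7.57 in MW_JQ1 (log2 difference -2.88, SE 0.29, limma adjusted p = 0.037). CREBBP was at 27.4 and 38.5 in CTRL and at 8.86 and 8.002 in JQ1 cells of the DMSO table. Its call was lost under equal medians (adjusted p = 0.041, 0.051 and 0.039 under TMM, equal-median and class-free scaling) and without either MW_JQ1 library. BRD2 was at 227 and 152 in JQ1 and 130 and 139 in MW_JQ1 and was not called.

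Genes known to respond to BET inhibitors were not called, 0 of 11 beside 2.35% of all tested genes, with a median of -0.71. HEXIM1, the inhibitor of P-TEFb that BET inhibitors induce, was at 85.3 and 77.0 FPKM in JQ1, 46.4 and 55.0 in MW_JQ1, and 63.4 and 52.0 in CTRL (log2 difference -0.67, limma adjusted p = 0.15). TXNIP, a regulator of glucose uptake, was at 373 and 376 in JQ1, 242 and 215 in MW_JQ1, and 168 and 162 in CTRL (-0.71, adjusted p = 0.083). MYC was at 14.4 and 35.5 in JQ1, 6.55 and 6.35 in MW_JQ1 and 35.8 and 45.4 in CTRL (-1.67, adjusted p = 0.14). For these 3 the JQ1 and MW_JQ1 groups did not overlap. The table with the DMSO group may have been normalized separately. In it MYC was at 5.93 and 3.43 in JQ1 cells and 5.25 and 3.87 in DMSO cells. HEXIM1 was there at 73.8 and 76.7 in JQ1 cells and 26.5 and 29.4 in DMSO cells. TXNIP was at 327.5 and 328.1 against 56.5 and 50.0. Of the 11, 8 had both MW_JQ1 libraries below both JQ1 libraries (background 22.1%) and 2 had both above (background 40.7%).

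Cell cycle genes gave 1 call. Of 24 G2/M genes tested 1 rose (background 1.61%) and 0 fell, with a median of 1.39, and 20 had both MW_JQ1 libraries above both JQ1 libraries (background 40.7%). AURKA, the centrosomal mitotic kinase, was at 1.72 and 1.37 FPKM in JQ1, 35.3 and 39.6 in MW_JQ1, and 26.4 and 32.0 in CTRL (log2 difference 3.92, limma adjusted p = 0.030), a call lost under equal medians and without either MW_JQ1 library. In JQ1 cells of the DMSO table AURKA was at 26.3 and 24.5. None of 29 S phase genes was called (median 0.50), beside 2.35% of all tested genes. Of the 44 in the table, 5 and 12 were at 0 in the JQ1 libraries. PCNA, the replication clamp, was at 65.4 and 80.0 in JQ1 and 87.3 and 75.7 in MW_JQ1, and SLBP, which binds the histone stem-loop, was at 96.2 and 67.8, then 60.9 and 66.5. PCNA overlapped between groups and SLBP did not, with MW_JQ1 below (background 22.1%). PCNA's difference of 0.17 was below 0 under each scaling.

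Of 23 genes of the unfolded protein and ATF4 response, 2 rose, both chains of the amino acid transporter LAT1, beside a background of 1.61% for this list and the glycolysis and interferon lists. SLC7A5 was at 85.9 and 59.5 FPKM in JQ1 and 271 and 297 in MW_JQ1 (log2 difference 1.97, limma adjusted p = 0.047), and SLC3A2 at 22.1 and 8.62, then 188 and 194 (3.69, adjusted p = 0.048). Of 28 glycolysis and hypoxia genes, VEGFA (18.0 and 17.1, then 75.8 and 98.8) and PFKP (44.5 and 29.7, then 180 and 203) rose. Of 23 interferon-stimulated genes, BST2, the tetherin that holds virus particles at the membrane, rose from 68.02 and 73.4 to 285 and 298 (2.03, adjusted p = 0.030). These 5 calls were lost under all 3 scalings, those of VEGFA without either MW_JQ1 library, and those of SLC7A5 and PFKP without MW_JQ1 library 2, and those of SLC7A5 and SLC3A2 with CTRL in the fit. None of 21 antigen presentation genes was called, beside 2.35% of all tested genes. Of these 21, 19 had both MW_JQ1 libraries above both JQ1 libraries (background 40.7%), with a median of 1.30. CALR was at 627 and 729, then 967 and 1067 (adjusted p = 0.10).

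Markers of the cell line were present in every library. All 10 MDA-MB-231 markers were above 0 in all 4 libraries, with a median difference of 0.39 (-0.01 under class-free scaling) and 0 calls, and S100A4 was at 926 and 896 FPKM in JQ1 and 713 and 745 in MW_JQ1. Their sum was 3093 and 2992 in JQ1 and 4086 and 3731 in MW_JQ1. Of luminal epithelial markers 9 were in the table and 0 of 7 tested were called, with sums of 1355 and 1217 against 1693 and 1632. KRT8 (666 and 543, then 511 and 533) and KRT19 (397 and 466, then 772 and 777) led them. Of blood cell markers the table held CD14 (0.248 and 0 in JQ1, 15.7 and 13.1 in MW_JQ1) and LAPTM5 (2.93 and 0, then 16.3 and 16.3), whose sum in CTRL was 29.5 and 42.0. Of fibroblast and endothelial markers 6 were in the table, with sums of 7.55 and 1.64 against 15.8 and 19.1. The part of these markers in the results was not tested.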

How the data were processed

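The authors deposited FPKM per gene and library, in a table whose unit was inferred from its format and sums (426106 to 461900 per library over the 14954 genes) and from the name of another table of the series. The table also holds columns of the authors' own test, which were not used. The submitters' processing notes name HISAT2 2.1.0, Cufflinks 2.2.1, CASAVA 1.4 and the hg38 build. Options, annotation and strand setting were not given in the sources used here. Depth per library is unknown.

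Samples were grouped by title. Values were taken as log2(FPKM + 1) for genes above 0 in all 4 libraries and at 1 FPKM or more in at least 2, and fitted with limma 3.58.1 (lmFit, contrast, eBayes with trend) in R 4.3.3 over the 8899 genes, with Benjamini-Hochberg adjustment. The scripts were tested on simulated data. Summaries and plots were made in Python 3.11.15 with pandas 2.3.3, and matplotlib 3.10.9 drew the figures. The members and the 32 gene lists were chosen with earlier results of these data known. The lists were described by counts and medians, with no set test.

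Named genes were METTL3, METTL14, WTAP, MYC, HEXIM1 and BRD2, the 10 highest rises and 10 deepest falls among called genes that did not overlap between groups and had a mean of at least 5 FPKM, up to 4 called members of each list described (or, with none called, the 2 with the highest mean), the 6 histone, 6 variant and 6 small RNA genes with the highest mean, and the 6 highest of those at 0 in a library. Results of some genes are not reported here. TMM factors were computed by hand without weights, with trims of 30% and 5%. Locations are from GENCODE release 29 and promoters from RefSeq.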

Additional observations from a re-analysis of the deposited data

How the results depend on the processing

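The 209 calls (143 higher, 66 lower) became 320 (222 higher) with a filter at 5 FPKM, 3135 (2779 and 356) with genes at 0 kept, 114 (64 higher) with a pseudocount of 0.1 and 367 (273 higher) with one of 5. They became 75 (25 higher) with TMM factors, 42 (10 and 32) with equal medians, and 75 (23 higher) without the RNA classes. Without the 2 JQ1 libraries in turn and the 2 MW_JQ1 libraries in turn, calls ran from 124 to 6212, higher calls from 65 to 4040 and lower calls from 59 to 2172. Of 2 alternatives chosen after seeing the data, array weights gave 245 calls and protein-coding genes alone gave 0 calls, 0 higher and 0 lower. The latter drops small RNA genes, replication-dependent histones, mitochondrial mRNAs, pseudogenes and other noncoding genes, and it rescales. Which of these removed the calls was not tested. No gene called in both had opposite directions, under any setting. Of 86 named genes tested 59 were called, and of these 59, 21 lost their call under TMM, 32 under equal medians and 21 without the RNA classes.

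The replicate numbers of JQ1 and MW_JQ1 libraries share only a number (correlation of deviations -0.01 over genes). With that number as a block 620 genes were called, 453 higher and 167 lower, and of the named genes WTAP alone changed its call.

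Differences of genes not called as deposited crossed 0 for PCNA (-0.17, -0.13, -0.23 and, among protein-coding genes alone, -0.25), H3-3B (-0.040, -0.0055, -0.10 and -0.12), VIM (-0.11, -0.073, -0.17 and -0.19) and VIRMA (-0.26, -0.23, -0.32 and -0.34) under TMM, equal medians, class-free scaling and protein-coding genes alone, and, with 1 library left out, for VIM (-0.0086 to 0.47), VIRMA (-0.080 to 0.18), METTL14 (-0.64 to 0.075) and TOX4 (-0.38 to 2.05). The log2 ratio of the small RNA shares was -8.81 over all genes of the table and -9.19 over genes above 0 in all 4, with a median within the class of -4.81. For histones these were -2.27, -2.13 and -2.92. The medians of the P-TEFb, RNA polymerase II, p53 and apoptosis lists changed sign under the 3 scalings, and those of the cholesterol and MDA-MB-231 lists without the RNA classes.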
